A study of Mus musculus with 2 samples.

Results

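The genes described here, 10 in number, build the elastic fibre or act beside it, and were followed through the cells of a healing mouse skull defect. They are Eln (elastin), Fbn1 (fibrillin-1), Fbln1, Fbln2 and Fbln5 (fibulins), Mfap4 and Mfap5 (microfibril-associated proteins), Lox and Loxl1 (lysyl oxidases) and Mgp (matrix Gla protein). All 10 were found by symbol among the 32285 genes of the count tables. The list is one of names, drawn up with earlier results of these data known, and each gene is 1 row of the tables.

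Elastic fibres form in steps. Fibrillin microfibrils are laid down first, elastin is deposited on them with the help of fibulins, and lysyl oxidases crosslink elastin into an insoluble polymer. Mgp is a small secreted protein, carboxylated by a vitamin K-dependent enzyme, that inhibits mineral deposition in soft tissue, including the wall of elastic arteries. The same genes are used by tendon, dermis, the meninges and the adventitia of vessels, while bone matrix itself holds little elastin.

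Single-cell RNA-seq was made from the calvarial defect of male C57BL/6 mice of 2 months, 7 days after injury. The GA library came from mice given gambogic amide (GA), a small-molecule agonist of the nerve growth factor receptor TrkA, at 1.2 mg/kg as the labels give it, dissolved with 10% DMSO. The other, called control, came from mice given the 10% DMSO vehicle alone. In both, 100 µL was injected intraperitoneally from 24 h before injury and then daily for 1 week, and each library pooled 5 mice, so there is 1 library per condition. No test between conditions was therefore made, and no p-value is given. Every interval below is a 95% interval that covers counting error only and not the difference between cells, animals or preparations. Whether intervals overlap therefore describes the counts and does not show that groups are alike or differ.

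After filtering, the GA library held 8375 cells and the control library 7555, whose UMIs (counted transcript molecules) came to 160386283 and 184414573. Of all barcodes, 23 occur in both libraries, 19 of them among kept cells. The mesenchymal lineage held 901 GA cells (10.8% of the library) and 1857 control cells (24.6%), with similar depth, a median of 49587 and 49812 UMIs per cell. Its cells fell into groups that were named from marker genes after the populations of the study: Stem 1-like (dividing cells), Stem 2-like, multilineage progenitor-like, osteoblast-like and fibroblastic progenitor-like. In the study Eln and Mgp themselves were among the genes that marked the fibroblastic population. Here neither they nor the other members entered the variable genes or the markers, so their levels did not directly make or name a group. Foxd1 and Foxc2, which marked the same population in the study, were kept as markers. The naming was therefore not independent of a population known for Eln and Mgp. The study also described Mgp and Foxc2 in this population as markers of dural fibroblasts. Whether the cells named here were dural was not tested. All markers of the lineage (9 of 9) and of each group (7 of 7, 12 of 12, 11 of 11, 11 of 11 and 14 of 14) were over 2 times higher than in the other cells. The same markers gave the clusters their names, so this describes the naming and cannot test it. A further 86 GA and 185 control cells of the lineage stayed without a name.

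Eln (chromosome 5, 134702593 to 134747323, minus strand, mm10) encodes the elastic core of the fibre. Its level, in CPM (counts per 1000000 UMIs of a class and library), was highest in fibroblastic progenitor-like cells in both libraries, at 1111 CPM (1065 to 1158) in GA and 2109 CPM (2087 to 2132) in control. The next levels were far below. In control they were 187 CPM in Stem 1-like, 128 CPM (122 to 133) in multilineage progenitor-like and 112 CPM (88.8 to 139) in mural-like cells, the last 2 of which did not differ beyond their intervals. In GA, mural-like cells stood second at 399 CPM (280 to 553, from 36 UMIs in 5 cells), ahead of multilineage progenitor-like cells at 161 CPM (152 to 171). Stem 2-like cells had low levels in both libraries, 26.5 CPM and 29.5 CPM, and osteoblast-like cells 4.91 CPM in GA and 48.5 CPM in control. Eln was also uneven from cell to cell. Thinned to 2000 UMIs each, 44.4% of GA and 62.6% of control fibroblastic progenitor-like cells showed an Eln UMI, against 0.158% and 0.865% of neutrophil-like cells, a type that should lack the gene.

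Mgp (chromosome 6, 136872435 to 136875823, minus strand) was also high in fibroblastic progenitor-like cells, and was seen in nearly every one of them. Fibroblastic progenitor-like cells had 9949 CPM (9810 to 10089) in GA and 9627 CPM (9579 to 9676) in control, and 98.1% and 96.9% of the thinned cells showed a UMI. Mural-like cells, the pericytes and smooth muscle cells of vessels, had 10498 CPM (9840 to 11189, 5 cells) in GA, an interval that overlaps that of the fibroblastic cells, and 7814 CPM (7612 to 8020, 28 cells) in control. Multilineage progenitor-like cells came next with 1971 CPM and 1304 CPM. Stem 2-like cells had 217 CPM and 256 CPM, and endothelial-like cells 458 CPM and 223 CPM. In endothelial-like cells 5 cells held 89.6% and 85.8% of the Mgp UMIs. Mgp was thus high in both fibroblastic and mural-like cells, whereas Eln was at 1111 CPM and 399 CPM in the GA cells of these groups and at 2109 CPM and 112 CPM in control.

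Fbln1 and Mfap4 shared this preference, less steeply. Fbln1, a fibulin of basement membranes and elastic fibres (chromosome 15, 85205949 to 85286535, plus strand), was highest in fibroblastic progenitor-like cells, at 444 CPM (415 to 475) in GA and 429 CPM (418 to 439) in control, with multilineage progenitor-like cells next at 246 CPM and 184 CPM. Mfap4, which binds elastin and fibrillin (chromosome 11, 61485431 to 61488900, plus strand), had 900 CPM (858 to 943) in fibroblastic progenitor-like and 540 CPM (523 to 557) in multilineage progenitor-like cells of GA. In control the same pair stood at 500 CPM (489 to 511) and 511 CPM (501 to 522), with overlapping intervals. Mfap4 was not detected in mural-like cells: it had 0 UMIs in both libraries, and a count of 3 would correspond to 33.3 CPM in GA and 4.14 CPM in control.

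Fbn1, Mfap5 and Fbln2 were highest elsewhere. Fbn1 (chromosome 2, 125300594 to 125507993, minus strand), the main fibrillin of the microfibril, was highest in Stem 2-like cells, at 2101 CPM (2084 to 2118) in GA and 1576 CPM (1564 to 1588) in control. Stem 1-like cells followed with 1274 CPM and 921 CPM, and fibroblastic progenitor-like cells had 398 CPM and 414 CPM. Mfap5 (chromosome 6, 122505845 to 122529290, plus strand), a microfibril glycoprotein that binds fibrillin, was ordered alike, with 1177 CPM and 1231 CPM in Stem 2-like, 696 CPM and 650 CPM in Stem 1-like and 262 CPM and 294 CPM in fibroblastic progenitor-like cells. Fbln2 (chromosome 6, 91212455 to 91272540, plus strand), a fibulin that binds fibrillin and elastin precursors, had 944 CPM and 1016 CPM in Stem 2-like cells and its lowest level among the progenitor groups, 101 CPM and 140 CPM, in fibroblastic progenitor-like cells. By group level, the group with most Eln was therefore not the one with most Fbn1, Mfap5 or Fbln2.

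Fbln5, which tethers elastin to microfibrils and cells (chromosome 12, 101746565 to 101819055, minus strand), was found across the stem-like and progenitor-like groups. In the stem-like and progenitor-like groups it lay between 52.4 and 97.4 CPM in GA and between 40.9 and 94.9 CPM in control. In control, fibroblastic progenitor-like cells (89.0 CPM, 84.4 to 93.8) and multilineage progenitor-like cells (94.9 CPM, 90.5 to 99.5) did not differ beyond their intervals. Fbln5 was at 52.0 CPM and 55.0 CPM in endothelial-like cells, beside 72.7 CPM and 74.8 CPM in the lineage. The RefSeq sequences (GRCm38.p6) of 250 bases before the start are shown for Fbln1 and Fbln5, the fibulin more like Eln over the groups (Pearson r of 0.89, described below) and one less like it (0.55), at an annotated start whose window lies clear of annotated exons. Capitals mark every match on either strand to a TATA box (TATAAA), a GC box (GGGCGG), an AP-1 site (TGACTCA) or an E-box (CACGTG).
Fbln1, chr15:85205699-85205948, plus strand: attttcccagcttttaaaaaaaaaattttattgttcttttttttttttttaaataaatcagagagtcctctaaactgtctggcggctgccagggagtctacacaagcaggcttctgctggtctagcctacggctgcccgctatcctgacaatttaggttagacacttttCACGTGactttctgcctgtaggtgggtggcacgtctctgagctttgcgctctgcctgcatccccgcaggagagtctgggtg
Fbln5, chr12:101819120-101819369, minus strand: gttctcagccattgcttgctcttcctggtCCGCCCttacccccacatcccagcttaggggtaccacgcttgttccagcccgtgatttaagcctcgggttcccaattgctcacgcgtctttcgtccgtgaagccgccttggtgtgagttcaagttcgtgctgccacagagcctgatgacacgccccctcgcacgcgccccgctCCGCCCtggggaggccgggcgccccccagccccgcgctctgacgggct
The Fbln1 window holds CACGTG 1 time, as do 6.02% of the 32851 promoter windows searched, and lacks GGGCGG. The Fbln5 window holds GGGCGG 2 times, as 32.7% of windows do at least once. TATAAA (12.4% of windows) and TGACTCA (4.46%) are in neither. The GGGCGG matches depend on the start shown. The window of a second Fbln1 start (chr15:85205758-85206007) holds it 1 time, and that of a second Fbln5 start (chr12:101818485-101818734) lacks it. These matches describe the letters only, and binding was not measured.

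The lysyl oxidases crosslink both elastin and collagen. Loxl1 (chromosome 9, 58287738 to 58313186, minus strand) had nearly one level in 3 groups, 477 CPM, 494 CPM and 453 CPM in Stem 1-like, Stem 2-like and fibroblastic progenitor-like cells of GA and 452 CPM, 455 CPM and 451 CPM in control. Lox (chromosome 18, 52516067 to 52529867, minus strand) was highest in Stem 1-like cells at 915 CPM (883 to 947) in GA and 840 CPM (823 to 858) in control, and lay at 410 CPM or above in every group of the lineage. In osteoblast-like cells it had 443 CPM (422 to 466) in GA and 418 CPM (398 to 439) in control, and in GA this overlapped the interval of fibroblastic progenitor-like cells, 410 CPM (382 to 439). The other 9 members ranged there from 2.31 to 74.5 CPM in GA and from 14.1 to 505 CPM in control.

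**Figure D1:**
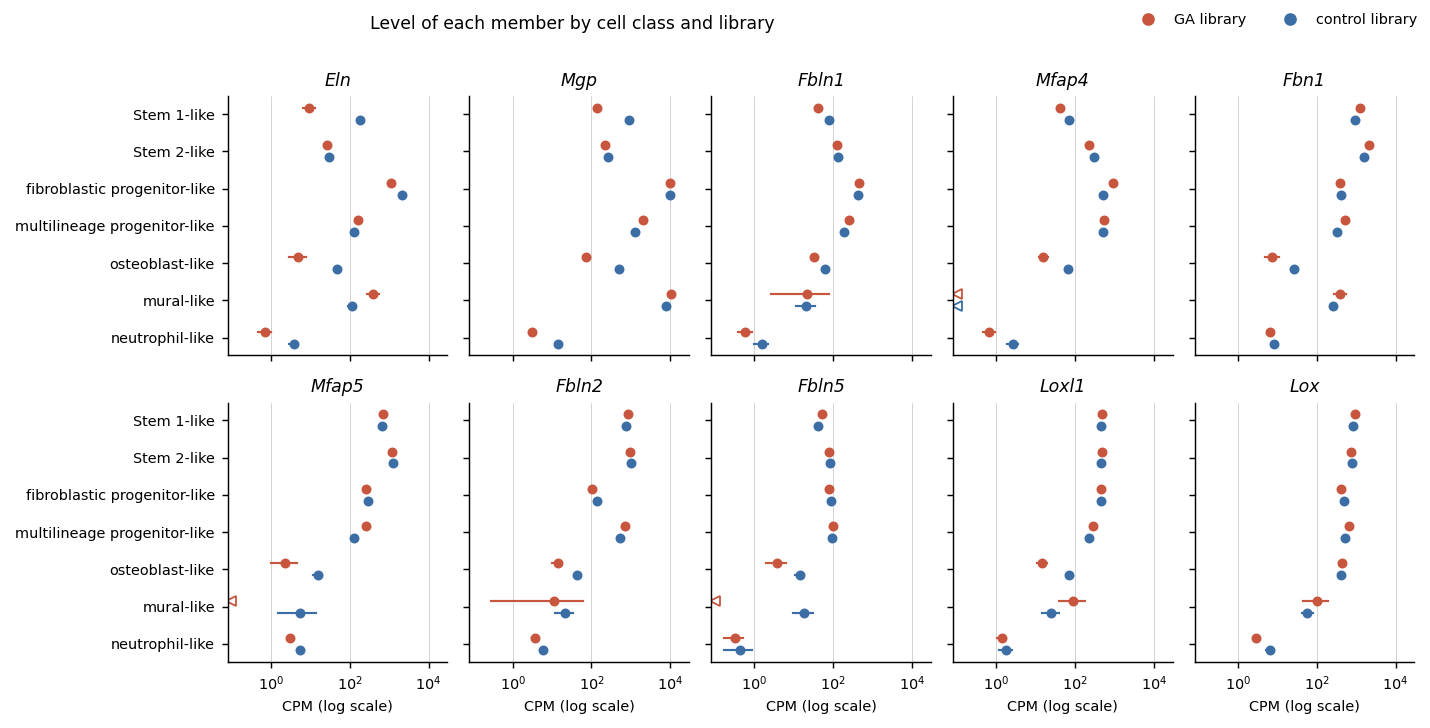
Level of each member in 7 cell classes, in CPM on a log axis, with the GA library in red and the control library in blue; bars are 95% Poisson intervals and open triangles mark 0 UMIs. Eln and Mgp peak in fibroblastic progenitor-like cells (Mgp also in mural-like cells), Fbn1, Mfap5 and Fbln2 are high in the stem-like groups, and Lox is at 443 CPM and 418 CPM in osteoblast-like cells.

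The osteoblast-like cells were 2 subclusters. In the larger, led by Bglap (osteocalcin, a marker of mature osteoblasts), 79 GA and 58 control cells held Lox at 443 CPM and 456 CPM and every other member at no more than 11.6 CPM in GA and 15.9 CPM in control. In neutrophil-like cells, which should lack these transcripts, the members had 0.315 to 6.45 CPM in GA and 0.428 to 14.5 CPM in control. Neutrophil-like cells were shallower, at medians of 7095.5 and 5130.5 UMIs, against 38819 and 42428 in osteoblast-like cells. The effect of depth on the background in CPM was not tested. Fbln1 in Bglap-led cells, at 11.6 CPM and 7.94 CPM, was above its own neutrophil-like level of 0.586 CPM and 1.53 CPM. In the smaller, in which Alpl (the alkaline phosphatase of early osteoblasts) was among the 10 genes of largest fold, 15 GA and 33 control cells had Mgp at 472 CPM and 1184 CPM, Fbln1 at 147 CPM and 141 CPM, and Lox at 444 CPM and 365 CPM. Per cell, the median of Lox in Bglap-led cells was 401 CPM in GA and 372 CPM in control, and the median of Eln, Mgp and Mfap4 was 0 in both.

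Members also differed in how they varied together. Over 10 profiles, the 5 named groups in each library, the Pearson correlation of log2(CPM + 1) was 0.98 between Eln and Mgp, 0.95 between Fbln1 and Mfap4 and 0.99 between Fbn1 and Mfap5. Between Eln and Fbn1 it was 0.23, and between Mgp and Lox -0.41. Each profile shares its library or its group with others, so these values are descriptions.

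Among all 12646 genes compared over these profiles, the 3 most like each member were the following. For Eln they were Mgp, Arl5c and Map7d3 (r of 0.98 each), and for Mgp they were Eln, Tbc1d16 and Fkbp1b (0.98 each). For Fbn1 they were Axl, St3gal2 and Trerf1 (1.00 each), and for Mfap5 they were Fbn1, Vapb and Fstl1 (0.99 each). Fbln1 was closest to H2afj, R74862 and Fbxo7 (0.98 each), Fbln2 to AW551984, Dynlrb1 and Adgrg2 (0.98 to 0.99), Fbln5 to Mmp14, Scpep1 and Cmtm3 (0.98 to 1.00), Mfap4 to Gaa, Hscb and Ndfip2 (0.97 each), Lox to Iqgap2, D030068K23Rik and 3300005D01Rik (0.98 each) and Loxl1 to Rab22a, Vps35l and Qdpr (0.99 each). Eln and Mgp were each other's closest gene, while Mfap5 had Fbn1 first and Fbn1 had Axl.

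Within a group the pairs were looser. Across the single cells of Stem 2-like cells, thinned to 10000 UMIs, Mfap4 and Mgp had a Spearman correlation of 0.56 in both GA (477 cells) and control (690 cells), Fbn1 and Mfap5 of 0.47 and 0.43, and Fbn1 and Mgp of -0.40 and -0.31. In multilineage progenitor-like cells (146 and 377 cells) Mfap4 and Mgp had 0.60 and 0.59, Fbln1 and Mgp 0.58 and 0.44, and Fbn1 and Mfap5 0.52 and 0.35, while Fbn1 and Mgp were at -0.22 and -0.08. Cells of a library share its preparation and free RNA, so these too are descriptions. In fibroblastic progenitor-like cells (53 and 354 cells) Eln and Loxl1 had 0.31 and 0.47, Eln and Fbn1 0.37 and 0.30, and Fbn1 and Fbln1 -0.43 and -0.39. There Eln and Mgp had 0.05 and 0.28, Fbln1 and Mfap4 0.04 and 0.06, and Eln and Fbln1 -0.40 and -0.25. In Stem 2-like cells these pairs had 0.23 and 0.29, 0.39 and 0.50, and 0.17 and 0.20. In multilineage progenitor-like cells they had 0.43 and 0.37, 0.47 and 0.35, and 0.38 and 0.30.

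The study's contrast was first taken over the whole lineage. Eln had 87.3 CPM in GA and 395 CPM in control, a log2 ratio of GA over control of -2.18 (-2.22 to -2.13). Mgp had 867 CPM and 2018 CPM, a log2 ratio of -1.22 (-1.23 to -1.20). Fbn1 lay in the other direction, with 1530 CPM and 962 CPM and a log2 ratio of 0.67 (0.65 to 0.68). The remaining 7 members had log2 ratios from -0.35 (Fbln1) to 0.23 (Mfap5), and the median of the 10 was 0.01, beside -0.02 over the 12849 genes with at least 200 UMIs. Of the 10 members, 2 lay beyond 1 in either direction, both lower in GA, against 3.41% of all genes tested.

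Neutrophil transcripts in the lineage were also higher in GA. Kept cells named neutrophil-like numbered 4456 in GA (53.2%) and 2106 in control (27.9%). Whether RNA from these cells added to the lineage values was not tested. The 10 neutrophil markers summed to 1826 CPM in GA lineage cells and 219 CPM in control ones, and all 10 were higher in GA. A subcluster of 39 GA and 45 control cells, led by the neutrophil genes S100a8 and S100a9, stood without a name, and without it the sums were 1014 CPM and 182 CPM. By group they ran from 503 CPM (fibroblastic progenitor-like) to 3028 CPM (osteoblast-like) in GA and from 145 CPM to 608 CPM, in the same groups, in control. Their part in the members' values was not tested.

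The 2 members lower in GA by more than 1, Eln and Mgp, were those with the largest shares in fibroblastic progenitor-like cells. These cells were fewer in GA: 54 of 901 lineage cells (5.99%) against 357 of 1857 (19.2%). They held 52.6% of the lineage's Eln UMIs in GA and 84.8% in control, and 47.4% and 75.7% of its Mgp UMIs. For all 10 members together the share was 10.2% in GA and 36.1% in control. Over all genes the group held 4.13% and 15.9% of UMIs. The pooled share was mostly Mgp, with 19551 of the group's 27718 member UMIs in GA and 150480 of 227180 in control. Fbn1 (1.07% and 6.83%), Fbln2 (0.532% and 3.21%), Mfap5 (1.32% and 6.66%) and Lox (2.37% and 11.2%) had lower shares than all genes. The other members had higher ones.

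**Figure D2:**
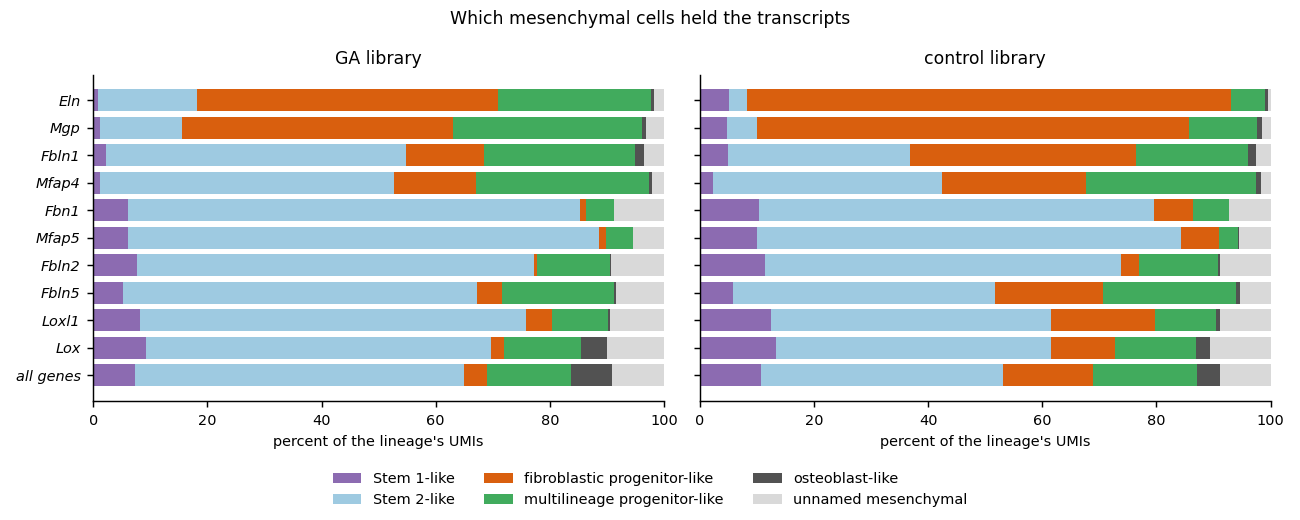
Percent of each member's mesenchymal UMIs held by each group, in the GA library (left) and the control library (right), with all genes in the lowest bar. Fibroblastic progenitor-like cells, in orange, hold 52.6% of Eln UMIs in GA and 84.8% in control, and Stem 2-like cells hold 79.2% and 69.3% of Fbn1 UMIs.

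The ratios were then taken with the groups held at the share of UMIs they have in control. Mgp then stood at 2076 CPM in GA against 2018 CPM in control, a log2 ratio of 0.04 (0.02 to 0.06). Eln then stood at 220 CPM against 395 CPM, a log2 ratio of -0.84 (-0.90 to -0.79). Fbn1 kept a log2 ratio of 0.45 (0.43 to 0.46). No member was beyond 1 (2.25% of all genes were), the other 7 members lay between 0.00 and 0.16, and the median of the 10 was 0.03, as over all genes (0.03). At fixed composition Eln was thus the member with the lowest ratio and Fbn1 the one with the highest. With subclusters in place of groups held at their control shares, Eln had -0.75 and Fbn1 0.38, and Fbln5, at -0.03, Mfap5, at -0.01, and Lox, at -0.02, were also below 0.

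**Figure D3:**
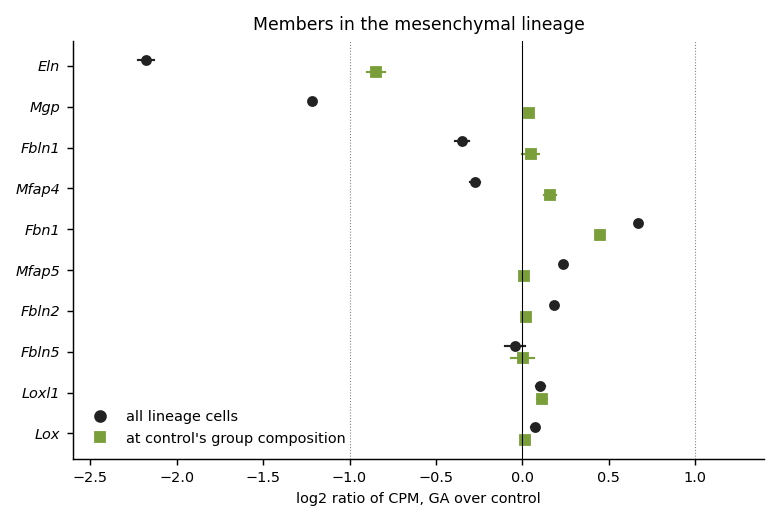
Log2 ratio of CPM, GA over control, for each member in the mesenchymal lineage (black circles) and with the groups weighted by their share of control UMIs (green squares); bars are 95% counting intervals and dotted lines mark ratios of -1 and 1. Mgp is at -1.22 and 0.04 and Eln at -2.18 and -0.84, while Fbn1 stays positive at 0.67 and 0.45.

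Within fibroblastic progenitor-like cells the log2 ratio of Eln was -0.93 (-0.99 to -0.86) and that of Mfap4 was 0.85 (0.77 to 0.92), while Mgp was level at 0.05 (0.03 to 0.07). The others lay between -0.47 (Fbln2) and 0.05 (Fbln1). Of these and Mgp, Lox alone had the same direction in all 14 alternative settings, while Fbln2 ran from -0.96 to 0.33 and Fbn1 from -0.20 to 0.51. No member was beyond 1, against 3.36% of all genes in this group. In GA, 5 of the 54 cells held 59.3% of the Eln UMIs, and in control 5 of 357 held 11.7%, so the GA value rests on few cells. Without the 10% of cells with most Eln in each library its log2 ratio was -1.45, and Mfap4 without its own top cells was at 0.81.

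The group was made of 2 subclusters, and both differences were larger in one of them. In the subcluster led by Ptgds (prostaglandin D2 synthase, known from the meninges), 35 GA cells had Eln at 273 CPM and 209 control cells at 1381 CPM, a log2 ratio of -2.34 (-2.51 to -2.17). The median cell had 81.9 CPM in GA and 382 CPM in control, and 3 of 35 GA cells (8.57%) and 73 of 209 control cells (34.9%) were above 1000 CPM. Mfap4 lay in the other direction, at 1233 CPM and 575 CPM (log2 ratio 1.10, 1.01 to 1.19), with medians of 940 CPM and 426 CPM per cell. Fbln2 was low in these cells, with 10 UMIs in GA and 313 in control (log2 ratio -2.12, -3.20 to -1.22).

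In the other subcluster, led by Col4a1 (a collagen IV chain of basement membranes) and Rbfox1, 19 GA cells and 148 control cells were nearer to each other. Eln was at 2175 CPM and 2854 CPM (log2 ratio -0.39, -0.46 to -0.32) with medians of 1194 CPM and 1496 CPM per cell, and 63.2% and 61.5% of cells were above 1000 CPM. Mfap4 had 476 CPM and 423 CPM. Mgp was between 8924 CPM and 10756 CPM in both subclusters of both libraries. The spread of Eln over cells, from 0 to 16247 CPM in the Ptgds-led control cells, was wide in either library, and the ranges of the libraries overlapped.

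**Figure D4:**
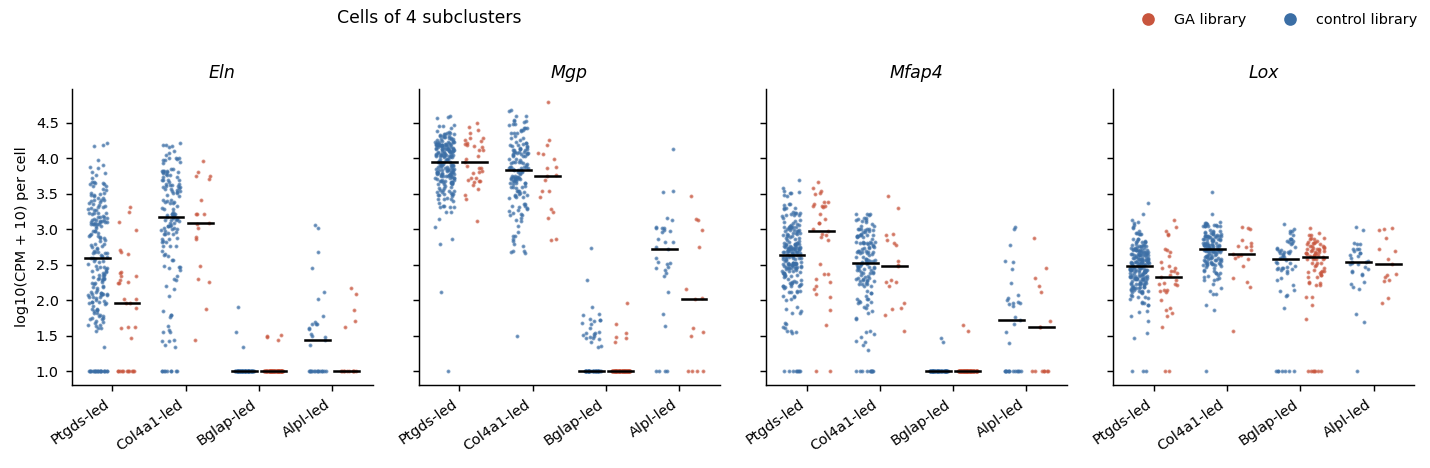
Each point is 1 cell, as log10(CPM + 10), in the 2 subclusters of fibroblastic progenitor-like cells and the 2 of osteoblast-like cells, control in blue and GA in red; black bars are medians. The median for Eln in Ptgds-led cells is 81.9 CPM in GA and 382 CPM in control, Mgp is alike in both libraries there, and of these 4 genes Lox alone has a median above 0 in Bglap-led cells.

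In multilineage progenitor-like cells (147 GA, 382 control) all 10 members had a positive log2 ratio, with a median of 0.37 beside -0.0026 over all genes. Mfap5 was the highest, with 264 CPM and 129 CPM (log2 ratio 1.03, 0.95 to 1.12), and was the only member beyond 1, against 1.17% of all genes. Fbn1 had 0.64 (0.58 to 0.70) and Mgp 0.60 (0.56 to 0.63). Fbln5 at 0.04 (-0.09 to 0.17) and Mfap4 at 0.08 (0.02 to 0.13) were nearly level. Eln was at 0.34, but under other settings its ratio ran from -0.46 to 0.56, so its direction depended on the setting, as did that of Mfap4 (-0.25 to 0.46). Mfap5 ran from 0.63 to 1.78. By subcluster the sign was not uniform. In Sox6-led cells (89 GA, 257 control) Eln was at -0.33 (-0.56 to -0.11) and Mfap4 at -0.26 (-0.36 to -0.18), with the other members above 0. In Matn4-led cells (58 GA, 125 control) Fbln5 alone was below 0, at -0.18 (-0.38 to 0.02).

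In Stem 2-like cells (479 GA, 723 control), the most numerous group, Fbn1 stood apart from the rest with a log2 ratio of 0.42 (0.40 to 0.43). The other 9 members had ratios between -0.36 (Mfap4) and 0.12 (Loxl1), and none was beyond 1 (1.88% of all genes were). Mfap5, its partner in the microfibril, was at 1177 CPM and 1231 CPM, so the pair most alike over the groups differed in its ratio between libraries.

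These cells were 5 subclusters, and several members differed between them. The largest, led by Dmkn (209 GA and 230 control cells), had Fbn1 at 2425 CPM and 1733 CPM and Mgp at 25.3 CPM and 43.4 CPM. Its name was weakly based: its mean log2 fold was 0.60 for the Stem 2 markers and 0.40 for the Stem 1 markers. The smallest subcluster (22 and 50 cells) had 0.85 for Stem 2 and 1.02 for Stem 1, while the rest had 1.87 to 3.11 for Stem 2. Cells led by Mmp3, with Egfl6 (67 and 125 cells), had Fbn1 at 1033 CPM and 948 CPM, Mgp at 973 CPM and 722 CPM and Mfap4 at 920 CPM and 648 CPM. In cells led by Pi16, a marker of adventitial fibroblasts (150 and 219 cells), Mfap4 was at 244 CPM and 518 CPM. Fbn1 had a positive log2 ratio in each of the 5 subclusters, from 0.12 to 1.17, and was 0.37 with their control shares held.

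Stem 1-like cells, marked by genes of cell division (41 GA, 119 control), had Eln at 9.26 CPM in GA and 187 CPM in control, and Mgp at 140 CPM and 885 CPM. Eln and Mgp, with log2 ratios of -4.34 (-4.89 to -3.83) and -2.66 (-2.80 to -2.53), were the 2 members beyond 1 in this group, against 2.11% of all genes. Few cells carried them: 5 cells held 72.3% of the control Eln UMIs and 58.5% of the control Mgp UMIs, and without the top 10% of cells the ratios were -2.22 for Eln and -1.96 for Mgp. The median cell had 0 CPM of Eln in both libraries. Fbn1, Lox and Fbln2, found in most cells of the group, had log2 ratios of 0.47, 0.12 and 0.17.

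In osteoblast-like cells (94 GA, 91 control) Lox was level, with a log2 ratio of 0.09 (-0.02 to 0.19), and 8 of the other 9 members were lower in GA by more than 1. Of the genes with at least 200 UMIs over both libraries 4.91% were (5.72% beyond 1 in either direction), but 3 of the 8 members, Fbn1, Fbln5 and Mfap5, had fewer UMIs, so the count and the share cover different gene sets. Fbln1 had -0.97. The median of the 10 was -2.0, beside -0.17 over all genes, and -1.20 with the control shares of the subclusters held. With those shares held, Fbln1 was at 0.10, and Fbln2 and Mfap4, at -0.59 and -0.68, were no longer beyond 1. The direction of the median depended on the setting. It was 0.29 with a stricter mitochondrial limit, 0.26 without batch correction and 0.26 with another transformation, settings in which control had 51 to 57 cells in place of 91.

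Mural-like cells were too few to compare firmly, with 5 in GA and 28 in control. Mgp had 947 and 5663 UMIs there, a log2 ratio of 0.43 (0.33 to 0.53), and Eln had 36 and 81 UMIs, a log2 ratio of 1.84 (1.23 to 2.42). Over the 7 members with UMIs in both libraries the median was 0.57. Eln and Loxl1 were beyond 1, but with fewer than 200 UMIs each. Of the members with at least 200, Fbn1 and Mgp, neither was, against 11.8% of such genes. Fbln1 had 2 UMIs and Fbln2 1 UMI in the GA cells, so their ratios carry little. Pericytes and smooth muscle cells were not separated. A further 12 GA and 32 control cells with Rgs5, Tagln and Acta2 among their leading genes stayed without a name and are not counted here. They were shallow, at a median of 1518 UMIs, and scored higher for erythroid (3.00) than for mural markers (2.04).

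Beside these values stands the background. Neutrophil-like cells, which should lack all 10 transcripts, had Mgp at 3.02 CPM in GA and 14.5 CPM in control and Eln at 0.699 CPM and 3.85 CPM. Their log2 ratios of -2.26 and -2.46 are of the size of those over all cells, -2.06 for Mgp and -3.00 for Eln. The part of this background in the low levels of osteoblast-like and Stem 1-like cells was not tested. Neutrophil-like cells were shallower than either of these groups, so the CPM values come from unlike depths.

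Genes that work with the members were read from 6 lists. Of 52 genes, 50 had at least 200 UMIs in the lineage, 1 was lower in GA by more than 1 on the log2 scale and 3 were higher, against 1.66% and 1.75% of all genes. The median over the 50 was -0.03, beside -0.02 over all genes.

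Among microfibril and latent TGF-beta binding genes, 0 of 13 were beyond 1, the median was -0.21, and 10 were below 0. Mfap2, the most abundant of them and a partner of fibrillin, had 215 CPM and 248 CPM, a log2 ratio of -0.21 (-0.24 to -0.17). Unlike Fbn1, Mfap2 was highest among the named groups in fibroblastic progenitor-like cells, at 350 CPM in GA and 324 CPM in control. Stem 2-like cells had Mfap2 at 245 CPM and 311 CPM. Among the other fibulins, Efemp1 (fibulin-3) was the 1 of 5 beyond 1, at 264 CPM in GA and 115 CPM in control, with a log2 ratio of 1.20 (1.16 to 1.23) that was 1.02 at the control composition. Efemp2 (fibulin-4), needed for elastic fibre assembly and the most abundant, had 282 CPM and 196 CPM, a log2 ratio of 0.53 (0.50 to 0.56). The members Fbln1, Fbln2 and Fbln5 had -0.35, 0.18 and -0.04.

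Of the genes of crosslinking and its preparation, 0 of 8 were beyond 1, with a median of 0.02 and a range of -0.21 to 0.59, and Pcolce, which enhances procollagen processing, had 636 CPM and 605 CPM. Of the elastolytic enzymes and their inhibitors, 2 of 12 were beyond 1, Mmp9 at 16.3 CPM and 5.39 CPM (log2 ratio 1.60, 1.43 to 1.76) and Elane, neutrophil elastase, at 3.57 CPM and 1.30 CPM (1.46, 1.12 to 1.80). Timp1, the most abundant and an inhibitor of metalloproteinases, was level at 1044 CPM and 1023 CPM. Elane and Mmp9 are neutrophil genes, at 497 CPM and 1512 CPM in GA and 654 CPM and 1181 CPM in control neutrophil-like cells, and the neutrophil markers given above were higher in the GA lineage. Without the S100a8-led subcluster Mmp9 had 10.6 CPM and 5.09 CPM, a log2 ratio of 1.06 (0.88 to 1.24). Elane had 0 UMIs in that subcluster in both libraries. Its ratio without the subcluster, 1.49 (1.15 to 1.84), is therefore no check on neutrophil RNA. The neutrophil markers still summed to 1014 CPM in GA and 182 CPM in control without the subcluster.

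The list of the elastin receptor complex and Lgals3 (galectin-3) had 0 of 4 genes beyond 1, with a median of 0.05. Lgals3, the most abundant of the 4, had 247 CPM and 203 CPM. Of the genes of gamma-carboxylation and inhibition of mineral, 1 of 8 was beyond 1: Enpp1, which makes the mineral inhibitor pyrophosphate, had 52.0 CPM in GA and 105 CPM in control, a log2 ratio of -1.01 (-1.08 to -0.95) that was -0.68 at the control composition. Spp1 (osteopontin), the most abundant, had 603 CPM and 444 CPM, a log2 ratio of 0.44 (0.42 to 0.46) in the lineage and -0.17 at the control composition. The carboxylase list had a median of -0.07.

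**Figure D5:**
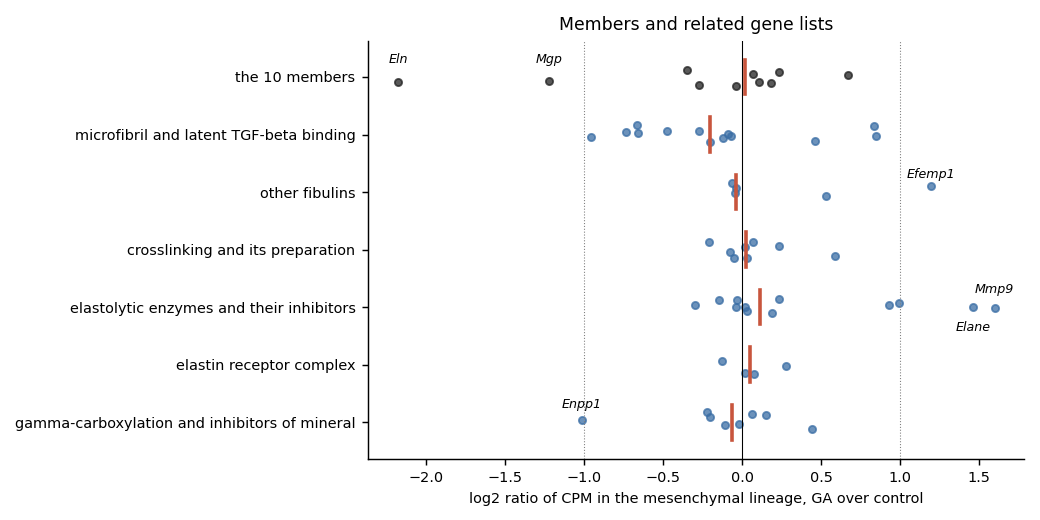
Log2 ratio of CPM in the mesenchymal lineage, GA over control, for the 10 members and for each gene with at least 200 UMIs of 6 related lists; red bars are medians and genes beyond 1 in either direction are named. Eln and Mgp lie at -2.18 and -1.22, Efemp1 at 1.20, and the medians of the lists run from -0.21 to 0.11.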

How the data were processed

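The authors aligned the reads to mm10 and deposited UMI counts per gene and barcode, made with Cell Ranger 7.0.1 per the file headers. Counts are not normalised. The 10 genes and all lists were chosen with earlier results of these data known, and the naming thresholds and the re-clustering of mural cells were set after the data were seen.

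Barcodes with 500 to 140000 UMIs, 200 to 9500 genes and at most 15% mitochondrial UMIs were kept, which left out 286 GA and 625 control barcodes. Scrublet (in scanpy 1.11.5) marked 3 barcodes (0.0322%) in GA and 52 (0.596%) in control at its automatic threshold, too few to use, so the highest-scoring barcodes were removed at 0.8% per 1000 barcodes, 661 in GA and 538 in control. Pearson residuals of 2000 variable genes gave 50 principal components, which were aligned between libraries by a Harmony-type correction and clustered with leidenalg 0.10.2 at resolution 1.0. Members and listed genes were left out of both variable genes and markers. The markers were taken partly from the study, which chose them on these samples.

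UMIs were summed per class and library. Levels carry exact Poisson intervals, shares Clopper-Pearson intervals, and log2 ratios exact conditional binomial intervals, or a delta-method interval where groups were weighted. Genes with at least 200 UMIs over both libraries entered each background share. With 1 library per condition no test was possible. Named genes were the 10 members, each listed gene beyond 1 in the lineage, the most abundant gene of each list, and the 3 genes most like each member. The code was tested on simulated data. Promoter windows are from RefSeq on GRCm38.p6, where 4 members had one.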

Additional observations from a re-analysis of the deposited data

How the results depend on the processing

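Of 13 alternatives for the lineage, all kept Eln (-2.50 to -1.81) and Mgp (-1.47 to -1.01) below -1. At the control composition Eln ran from -1.02 to -0.67 and Mgp from -0.08 to 0.13. Within fibroblastic progenitor-like cells, over 14 alternatives, Eln ran from -1.45 to -0.80 and Mfap4 from 0.67 to 0.91. The settings that left out the 10% of cells with most UMIs of a member, or held subclusters at their control shares, were chosen after seeing the data. Where a value below differs from the report, the cause was not tested. No paired analysis was possible because each condition has 1 library, and for the same reason no replicate could be left out. Pooled mice, few fibroblastic progenitor-like cells in GA (54) and 5 mural-like cells limit the comparisons.

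The median log2 ratio of the members in Stem 1-like cells was -0.10 with predicted doublets kept, 0.19 with a log1p transformation and -0.16 with cells thinned to 2000 UMIs. In Stem 2-like cells it was -0.14 without Harmony, -0.024 at resolution 0.5, 0.020 at resolution 2 and -0.11 without the top 10% of cells. In fibroblastic progenitor-like cells it was 0.0088 with doublets kept and 0.064 thinned. In multilineage progenitor-like cells it was 0.22 with doublets kept, 0.46 without Harmony, 0.26 at resolution 0.5 and 0.45 thinned. In osteoblast-like cells it turned positive at a mitochondrial limit of 10% (0.29), without Harmony (0.26) and with log1p (0.26), and was -1.01 with cells named by marker score, -1.15 with at least 2000 UMIs, -0.92 thinned, -1.29 without the top cells and -1.20 with subclusters held. Over the whole lineage at the control composition the median was 0.075 at the mitochondrial limit of 10%, 0.065 without Harmony and 0.064 with log1p. It was 0.11 thinned and 0.0027 relative to the median of all genes. In mural-like cells the median was 1.26 with at least 2000 UMIs, and one of the 5 other clustering seeds gave no mural class.

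The fibroblastic share of the members' lineage UMIs in GA was 11.7% with doublets kept, 9.88% at the mitochondrial limit, 10.1% at resolution 2, 10.4% over other seeds, 10.5% with members among the variable genes, 10.1% with log1p, 10.6% by marker score and 15.5% thinned. In control it was 31.1% with doublets kept, 37.9% without Harmony, 35.7% at resolution 2, 36.2% over other seeds, 36.5% with members among the variable genes, 36.4% with log1p, 34.9% by marker score, 35.7% with at least 2000 UMIs and 43.3% thinned. In control, 3 members were highest in the fibroblastic group, and 6 were with doublets kept, 5 without Harmony and 6 with log1p.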

Other observations

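Outside the mesenchyme and the mural-like and endothelial-like cells, control erythroid-like cells (106) had Fbln2 at 83.0 CPM, Lox at 82.5 CPM and Fbn1 at 65.1 CPM, of which 5 cells held 98.1%, 95.7% and 96.9%, while GA erythroid-like cells (69) had 2.01, 3.36 and 5.37 CPM. Doublets left after filtering were not examined in these cells.

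Among the lineage cells without a name, a subcluster with Tnfsf11 (RANKL, the osteoclast differentiation factor) among its leading genes held 36 GA and 118 control cells. Lox was at 758 CPM and 821 CPM and Fbn1 at 971 CPM and 732 CPM there, and Mgp at 262 CPM and 186 CPM. A subcluster led by the interferon-induced genes Ifit3 and Ifit1 (11 and 22 cells) had Mgp at 94.8 CPM and 2340 CPM and Lox at 1036 CPM and 1261 CPM. Its cells were few and shallow, with a median of 3690 UMIs, so these values carry little.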
